A study of Homo sapiens with 12 samples.

Results

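The genes described here are the ligands and receptors of the tumour necrosis factor (TNF) superfamily, 48 protein-coding genes of the 62696 genes, 20015 of them protein-coding, in each table of counts. The rule uses names and no measured value, and takes every symbol that begins with TNFSF or TNFRSF together with TNF, LTA, LTB, LTBR, FAS, FASLG, CD27, CD40, CD40LG, CD70, NGFR, EDA, EDAR, EDA2R and RELT. The list holds 19 ligands, one of them the readthrough gene TNFSF12-TNFSF13, and 29 receptors, of which 8 carry a death domain, 4 are decoys and 17 belong to neither class. RNA-seq was performed in SKBR3 and MDA-MB-453, established human breast cancer lines that the study classes as HER2, untreated or treated with TWEAK, with 3 biological replicates per group and 12 libraries in all. TWEAK is the ligand encoded by TNFSF12 and acts through Fn14, the receptor encoded by TNFRSF12A, and the design asks which genes of each line respond to it. By the labels, cells of every group were first starved for 8 h in Opti-MEM, and TWEAK was given at 10 ng/ml, once more at 24 h, until harvest at 48 h. The labels carry the same protocol text for the untreated libraries, without saying what those cells received. Each line is a single population, so a difference between the lines and a difference in their handling cannot be told apart.

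TNF superfamily ligands are mostly trimeric membrane proteins that can be shed, and their receptors cluster on the target cell when bound. Receptors with a cytoplasmic death domain recruit adaptors such as FADD and TRADD, which lead to caspase activation or to NF-κB, whereas the other signalling receptors bind TNF receptor-associated factors (TRAFs), and decoy receptors bind a ligand without passing on the signal. Fn14 belongs to the TRAF-binding group, and its activation stabilises the kinase NIK, which starts the non-canonical NF-κB pathway.

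Total counts lay between 24842722 and 28647209 per SKBR3 library and between 24773003 and 35208304 per MDA-MB-453 library. Levels are given as counts per 1000000 counts (CPM) after TMM scaling of all 12 libraries together. TWEAK replicate 2 differed from its fellow TWEAK libraries more than other replicates differed from each other. Over genes, chi-square divided by the degrees of freedom was 21.1 and 23.8 for the pairs with this library in SKBR3 and 1.78 to 5.74 for other pairs of a group. In MDA-MB-453 it was 10.2 and 5.31 against 2.09 to 2.85. Of 7 luminal and HER2 markers, 6 reached 1 CPM in SKBR3, which lacked CDH1 (0.162 CPM untreated), and 7 in MDA-MB-453. ERBB2 stood at 7578 CPM in untreated SKBR3 and at 890.5 CPM in untreated MDA-MB-453. None of 5 leukocyte markers reached 1 CPM in either line, although PTPRC, which defines leukocytes, had a few counts (0.158 and 0.0984 CPM untreated, the latter under the level of 3 counts per library). The sum of 3 endothelial markers lay between 3.89 and 5.10 CPM in untreated and between 6.43 and 7.72 CPM in TWEAK-treated SKBR3 libraries, through CDH5 (1.74 and 4.21 CPM on average), while PECAM1, which defines the type, was near 0 in both (0.0138 and 0.0676 CPM) and VWF stood at 2.86 and 2.68 CPM. The sum of 3 fibroblast markers lay between 18.0 and 20.8 CPM in untreated and between 17.2 and 18.3 CPM in TWEAK-treated SKBR3 libraries. In MDA-MB-453 it lay between 116.5 and 122.7 CPM and between 106.5 and 112.9 CPM, almost wholly through COL1A1 (120.3 CPM untreated), while COL3A1 had no counts there. The part of cells that bear CDH5 or COL1A1 in the results below was not tested.

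Receptors outnumbered ligands among the members with measurable RNA in both lines. Over the 6 libraries of the line, 19 members had a mean of at least 1 CPM in SKBR3, 4 of 19 ligands and 15 of 29 receptors. In MDA-MB-453 there were 13, again 4 ligands but 9 receptors. Both lines shared 11 of these, namely the ligands EDA, TNFSF13 and TNFSF15 and the receptors TNFRSF10A, TNFRSF10B, TNFRSF1A, TNFRSF21, LTBR, RELT, TNFRSF12A and TNFRSF13C. A further 8 reached the level in SKBR3 alone (FAS, TNFRSF25, TNFRSF11B, TNFSF9, CD40, TNFRSF11A, TNFRSF18 and TNFRSF1B), 2 in MDA-MB-453 alone (TNFSF10 and TNFRSF19) and 27 in neither. No counts at all were found for 6 members in SKBR3 and for 11 in MDA-MB-453, and 18 and 26 members had 3 counts or fewer in every library. These limits cover counting error only. One of the absent genes is the decoy TNFRSF6B, whose exons lie wholly within those of the readthrough gene RTEL1-TNFRSF6B, which held 93 to 254 counts per library. How reads on shared bases were counted is not given in the sources used here, so the 0 of TNFRSF6B cannot be read as its level.

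**Figure D1:**
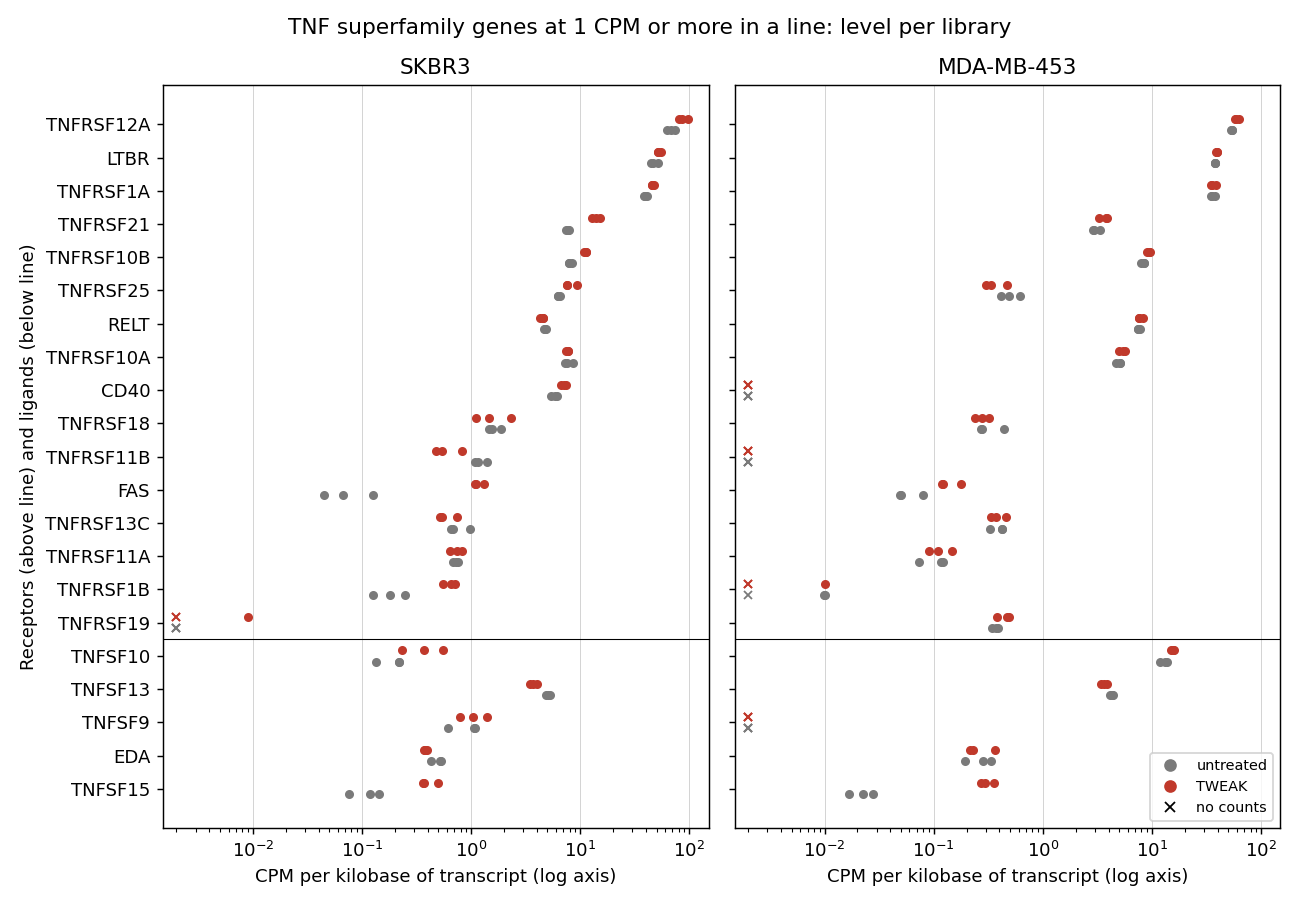
Level per library, in CPM per kilobase of the canonical transcript on a log axis, of the 21 members with a mean of at least 1 CPM in SKBR3 or MDA-MB-453, receptors above the line and ligands below it. Grey points are untreated and red points TWEAK-treated libraries, 3 each, and crosses mark libraries without counts; TNFRSF12A is the top receptor in both lines, and CD40, TNFRSF11B and TNFSF9 show nothing but crosses in MDA-MB-453.

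TNFRSF12A, which encodes the TWEAK receptor Fn14, had the highest RNA level per length of all 29 receptors in both untreated lines. The study saw little Fn14 protein in its HER2 lines on western blots, and a rank by RNA does not give the amount of receptor protein. The gene (ENSG00000006327.14) lies on chromosome 16 of hg38 from 3018445 to 3022383, on the plus strand. Per kilobase of transcript it stood at 67.9 ± 5.95 CPM (SD, n = 3) in SKBR3 and at 53.4 ± 0.829 in MDA-MB-453. LTBR, the lymphotoxin beta receptor (ENSG00000111321.11; chromosome 12, 6375045 to 6391571), followed with 47.6 ± 3.37 and 37.9 ± 0.0554 CPM per kilobase. TNFRSF1A, the main receptor for TNF itself and a neighbour of LTBR (ENSG00000067182.9; chromosome 12, 6328757 to 6342114), came next with 39.6 ± 1.47 and 36.0 ± 1.40 CPM per kilobase. In untreated MDA-MB-453 LTBR lay between 37.8 and 37.9 and TNFRSF1A between 34.8 and 37.6 CPM per kilobase, so the ranges of these neighbours did not overlap but nearly met. Together the 3 receptors held 77.5% of the length-scaled receptor RNA of untreated SKBR3 and 83.2% of that of untreated MDA-MB-453. Next in both lines was TNFRSF10B with 8.01 ± 0.264 and 8.26 ± 0.340 CPM per kilobase. In SKBR3, TNFRSF10A (7.75 ± 0.652), which binds the same ligand, came after it, and its libraries overlapped in level with those of TNFRSF10B and of TNFRSF21 (7.66 ± 0.263). In MDA-MB-453 it was followed by RELT (7.59 ± 0.213), whose libraries, all below those of TNFRSF10B, lay between 7.44 and 7.84 CPM per kilobase. With the length of all exons of a gene in place of the canonical transcript, a choice made after seeing the data, TNFRSF12A remained at the top in both lines, LTBR and TNFRSF1A changed places, TNFRSF21 had rank 4 in SKBR3 and TNFRSF10A rank 5 in MDA-MB-453.

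The gene of the ligand used as the treatment had almost no counts in these libraries. TNFSF12 (ENSG00000239697.12; chromosome 17, 7548508 to 7557890) had 0 counts in all 6 SKBR3 libraries and in 5 of 6 MDA-MB-453 libraries, and 1 count in TWEAK replicate 2 of MDA-MB-453. In untreated libraries, 3 counts in each, the limit that a count of 0 allows, correspond to 0.119 CPM in SKBR3 and 0.110 CPM in MDA-MB-453. The readthrough gene TNFSF12-TNFSF13, which shares 12.1% of the exonic bases of TNFSF12 and 55.5% of those of TNFSF13, was at 0 in all 12 libraries. All of its own exonic bases lie within those of TNFSF12 and TNFSF13, so that, as for TNFRSF6B, its 0 cannot be read as its level.

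Turning to the response, TWEAK raised 10 members and lowered 2 of the 23 that could be tested in SKBR3. Of all tested genes, 6.6% were called higher, 3.82% lower and 10.4% either way at an adjusted p of at most 0.1 in edgeR's quasi-likelihood test. Of the members that rose 9 were receptors, with FAS at the head, and 1 was a ligand, TNFSF15. The 2 that fell were the soluble decoy receptor TNFRSF11B and the ligand TNFSF13. The groups did not overlap for 15 of the 23 members tested, against 26.5% of all tested genes. The median log2 fold change of the 23 members was 0.22 and that of all tested genes -0.01, but for 5 members, FAS and TNFRSF14 among them, not every untreated library reached the level that the filter on low counts asks for, so that they were tested through higher counts in other libraries. Without untreated replicate 1, or without untreated replicate 2, 5 members were higher. Calls over the whole table also dropped in both fits, upward from 1034 to 694 and 686 and downward from 599 to 284 and 240. In a bulk library, a change in the number of cells that express a gene and a change in its RNA per cell cannot be told apart.

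**Figure D2:**
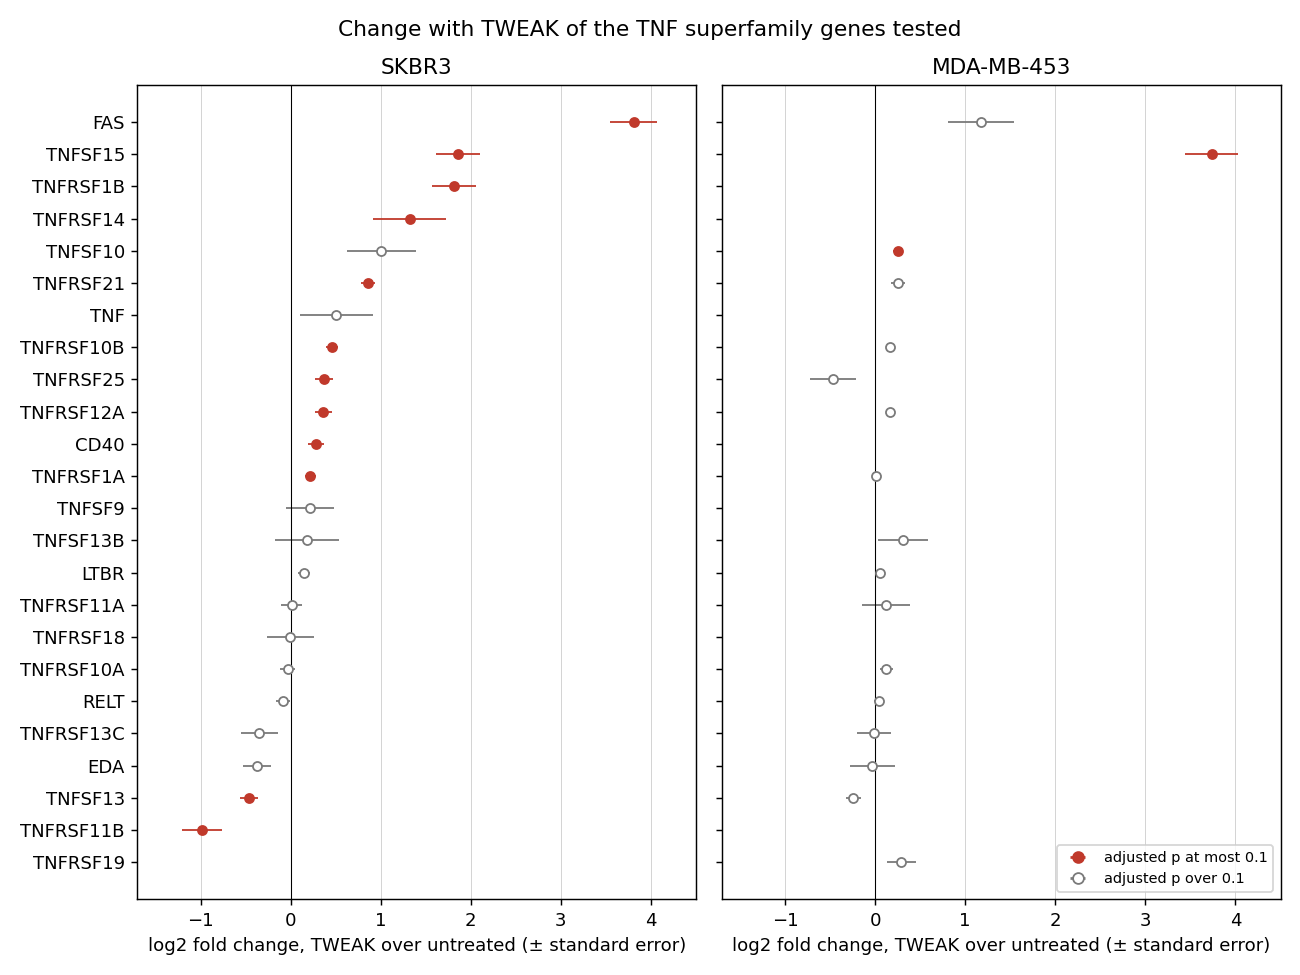
Log2 fold change of TWEAK-treated over untreated libraries, with its standard error, for the 23 members tested in SKBR3 and the 17 tested in MDA-MB-453, from edgeR. Filled red points passed an adjusted p of 0.1 and open points did not: 12 members are filled in SKBR3, 2 in MDA-MB-453, and TNFSF15 is the only one filled in both.

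Among the ligands, TNFSF15 rose in both lines. It encodes TL1A, a ligand of the death domain receptor DR3, and lies on chromosome 9 from 114784652 to 114806039 on the minus strand (ENSG00000181634.8). Its counts in SKBR3 were 14, 23 and 19 in untreated and 60, 59 and 79 in TWEAK-treated replicates, or 0.746 ± 0.227 and 2.70 ± 0.522 CPM (SD, n = 3). In MDA-MB-453 they were 4, 3 and 5 untreated and 46, 63 and 71 with TWEAK, or 0.147 ± 0.0371 and 2.02 ± 0.299 CPM. Every treated library lay far above every untreated one in both lines. In edgeR's test, SKBR3 gave a log2 fold change of 1.86 (standard error 0.248, adjusted p = 0.000675). MDA-MB-453 gave 3.74 (standard error 0.294, adjusted p = 6.01e-06), which rests on an untreated group of at most 5 counts per library. Over all alternatives in which it could be tested, TNFSF15 stayed called in both lines.

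TNFSF13 encodes APRIL, a B-cell survival factor (ENSG00000161955.17; chromosome 17, 7558292 to 7561608). In SKBR3 it stood at 9.60, 8.86 and 9.20 CPM untreated and at 7.32, 6.22 and 6.68 CPM with TWEAK. The treated libraries were all lower, with a log2 fold change of -0.46 (standard error 0.0989, adjusted p = 0.0154 from edgeR). In MDA-MB-453 its values were 7.73, 7.51 and 7.93 CPM untreated and 6.97, 6.53 and 6.19 CPM with TWEAK. These groups did not overlap either, but the log2 fold change of -0.24 had an adjusted p of 0.315 in edgeR, and the difference between the lines was -0.21 with an adjusted p of 0.597. The readthrough gene TNFSF12-TNFSF13 shares 55.5% of the exonic bases of TNFSF13, and how reads on shared bases were counted is not given. Its part in the level and change of TNFSF13 was not tested. Of the ligands named for their level, EDA, which signals in skin appendages, had a log2 fold change of -0.38 in SKBR3 (adjusted p = 0.217) and of -0.03 in MDA-MB-453 (adjusted p = 0.973), both from edgeR. TNFSF9, the ligand of 4-1BB, had 48, 24 and 43 counts in untreated and 56, 42 and 31 in TWEAK-treated SKBR3, which overlap (log2 fold change 0.21, adjusted p = 0.724 from edgeR).

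TNFSF10 encodes TRAIL, the ligand of the death receptors encoded by TNFRSF10A and TNFRSF10B (ENSG00000121858.11; chromosome 3, 172505508 to 172523475). It was the ligand with the highest CPM in MDA-MB-453, with 24.8, 22.4 and 25.6 CPM untreated and 29.7, 27.8 and 29.4 CPM with TWEAK. The groups were close but did not overlap, and the log2 fold change was 0.26 (standard error 0.0586, adjusted p = 0.0544 from edgeR). This call was not kept with DESeq2 (adjusted p = 0.136) or with all 12 libraries in one fit (0.406), nor when untreated replicate 1, untreated replicate 2 or the third TWEAK replicate was dropped (0.118, 0.365 and 0.288), and over all 13 alternatives the adjusted p lay between 0.00293 and 0.406. In SKBR3, TNFSF10 had 7, 10 and 10 counts untreated and 17, 11 and 25 with TWEAK. Its log2 fold change there was 1.01 with an adjusted p of 0.167 in edgeR, and it was called with no filter on low counts (0.0954), with all 12 libraries in one fit (0.066), with a correction for GC content and length (0.098) and without TWEAK replicate 2 (0.0229), within 0.0229 to 0.475 over 12 alternatives.

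Among the death domain receptors of SKBR3, 5 of the 6 tested were called higher, against 6.6% of all tested genes, though FAS did not reach the level of the filter in every untreated library and the calls of TNFRSF25 and TNFRSF1A were lost in some alternatives. FAS encodes the receptor of Fas ligand (ENSG00000026103.25; chromosome 10, 88953813 to 89029605, plus strand). Its counts in SKBR3 were 13, 6 and 4 in untreated and 102, 100 and 115 in TWEAK-treated replicates, or 0.294 ± 0.156 and 4.31 ± 0.428 CPM (SD, n = 3). FAS thus had few counts in every untreated library and many more in all 3 treated ones. The log2 fold change was 3.81 (standard error 0.261, adjusted p = 4.32e-06 from edgeR). In MDA-MB-453 the counts were 8, 5 and 5 untreated and 17, 12 and 16 with TWEAK. They did not overlap, but the log2 fold change of 1.18 (standard error 0.366) had an adjusted p of 0.239 in edgeR, and of 0.0685 without TWEAK replicate 2 (0.0685 to 0.931 over 12 alternatives). Genes on the opposite strand, ACTA2 among them, share 6.48% of the exonic bases of FAS. ACTA2 had 12, 9 and 11 counts untreated and 23, 31 and 34 with TWEAK in SKBR3, so that it was above FAS in untreated replicates 2 and 3 and below it in the other libraries. Whether the counting used the strand of reads is not given in the sources used here, and the part of antisense reads in the FAS counts was not tested. Such sharing also covers 13.3% of the exonic bases of TNFRSF14, 8.98% of TNFRSF25, 7.5% of TNFRSF10B and 2.22% of TNFRSF12A, all called in SKBR3. Of named members not called there, it covers 18.95% of EDA, 16.7% of TNFRSF10A, 12.15% of RELT and 6.86% of LTBR. The part of antisense reads in their counts was not tested either.

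TNFRSF21, which encodes death receptor 6 (ENSG00000146072.6; chromosome 6, 47231532 to 47309905, minus strand), rose in SKBR3 from 27.9, 26.5 and 28.3 CPM to 55.1, 45.8 and 49.7 CPM. Each treated library was well above each untreated one, with a log2 fold change of 0.86 (standard error 0.0794, adjusted p = 4.46e-05 from edgeR). In MDA-MB-453 it read 10.6, 10.5 and 11.9 CPM untreated and 13.6, 11.8 and 13.9 CPM with TWEAK. Here the groups overlapped, and the log2 fold change of 0.26 had an adjusted p of 0.235 in edgeR, or 0.00948 without TWEAK replicate 2 (0.00948 to 0.748 over 13 alternatives).

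TNFRSF10B encodes DR5, a TRAIL receptor (ENSG00000120889.13; chromosome 8, 23020133 to 23069031, minus strand). It rose in SKBR3 from 31.6, 33.3 and 31.3 CPM to 44.7, 45.2 and 43.1 CPM, tight groups far from overlapping. The log2 fold change was 0.46 (standard error 0.0653, adjusted p = 0.000968 from edgeR). In MDA-MB-453 it read 33.6, 34.0 and 31.5 CPM untreated and 38.0, 37.9 and 35.9 CPM with TWEAK. These groups did not overlap, with a log2 fold change of 0.17 (adjusted p = 0.195 from edgeR, and 0.0705 without TWEAK replicate 2, within 0.0326 to 0.646 over 13 alternatives). The other TRAIL receptor that signals, TNFRSF10A, did not pass the test in either line, with log2 fold changes of -0.03 in SKBR3 (adjusted p = 0.883 in edgeR) and 0.13 in MDA-MB-453 (adjusted p = 0.547). It read 22.9, 19.6 and 20.1 CPM untreated and 21.0, 20.9 and 19.8 CPM with TWEAK in SKBR3, and 12.5, 13.7 and 13.7 against 13.6, 15.3 and 14.7 CPM in MDA-MB-453, so the groups overlapped in both lines. The TRAIL decoys TNFRSF10C and TNFRSF10D, which lie in the same cluster of 4 genes on chromosome 8, had at most 5 counts in any library.

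Smaller increases were found for TNFRSF25 and TNFRSF1A in SKBR3. TNFRSF25 encodes DR3, the receptor of the TNFSF15 product (ENSG00000215788.11; chromosome 1, 6460786 to 6466175), and read 12.3, 12.3 and 12.7 CPM untreated and 14.9, 18.4 and 14.9 CPM with TWEAK. All treated libraries were higher, replicate 2 most of all, and the log2 fold change was 0.37 (standard error 0.101, adjusted p = 0.0517 from edgeR). TNFRSF1A went from 84.9, 83.3 and 89.4 CPM to 97.9, 103.5 and 99.2 CPM, a log2 fold change of 0.22 (standard error 0.0611, adjusted p = 0.0586 from edgeR). Both calls were lost in some alternatives. TNFRSF25 was not called without untreated replicate 1, 2 or 3 (adjusted p = 0.181, 0.193 and 0.119, lowest over 13 alternatives 0.0127), and TNFRSF1A not without untreated replicate 1 or 2 or TWEAK replicate 1 or 3 (0.245, 0.296, 0.113 and 0.12, lowest 0.00974). TNFRSF1A was also not called with a replicate block (0.169) or with no filter on low counts (0.114), all from edgeR. In MDA-MB-453, TNFRSF25 had only 16 to 33 counts per library and a log2 fold change of -0.47 (adjusted p = 0.541 from edgeR). TNFRSF1A read 81.5, 75.6 and 77.5 CPM untreated and 76.1, 83.1 and 76.9 CPM with TWEAK there, overlapping groups with a log2 fold change of 0.01 (adjusted p = 0.966 from edgeR).

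The decoy TNFRSF11B fell in SKBR3. It encodes osteoprotegerin, a soluble receptor that binds RANKL and TRAIL (ENSG00000164761.9; chromosome 8, 118923557 to 118951885). The counts were 81, 55 and 58 in untreated and 43, 25 and 27 in TWEAK-treated replicates, or 2.53 ± 0.338 and 1.29 ± 0.394 CPM (SD, n = 3). All treated values were below all untreated ones, with a log2 fold change of -0.98 (standard error 0.222, adjusted p = 0.0205 from edgeR, and 0.108 without untreated replicate 1, the highest over 13 alternatives). No MDA-MB-453 library had a count on TNFRSF11B.

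Of the 9 other receptors tested in SKBR3, 4 were called higher, against 6.6% of all tested genes, and the calls of CD40 and TNFRSF14 were lost in most alternatives. TNFRSF1B encodes TNFR2, the second receptor of TNF (ENSG00000028137.19; chromosome 1, 12166991 to 12209228, plus strand), and had 13, 22 and 16 counts untreated and 60, 66 and 49 with TWEAK. The treated libraries all lay well above the highest untreated one, and the log2 fold change was 1.81 (standard error 0.243, adjusted p = 0.000687 from edgeR). Its level went from 0.679 ± 0.222 to 2.37 ± 0.304 CPM, while MDA-MB-453 had 0 or 1 count per library.

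TNFRSF12A rose in SKBR3 from 60.9, 65.7 and 72.4 CPM to 83.5, 95.3 and 78.2 CPM. The lowest treated library was above the highest untreated one, and the log2 fold change was 0.37 (0.365 before rounding to 2 decimals, standard error 0.09, adjusted p = 0.0322 from edgeR). The call was not kept without untreated replicate 1 (adjusted p = 0.17) or untreated replicate 2 (0.144), and was kept in the other 11 alternatives. In MDA-MB-453, TNFRSF12A read 52.4, 51.2 and 52.8 CPM untreated and 61.9, 56.6 and 57.6 CPM with TWEAK. These values did not overlap, and the log2 fold change of 0.17 (standard error 0.0449) had an adjusted p of 0.129 in edgeR, which became 0.00849 without TWEAK replicate 2 (0.00849 to 0.796 over 13 alternatives). The responses of the lines differed by 0.20 (standard error 0.105, adjusted p = 0.532), so no difference between the lines was detected for the receptor of the treatment.

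CD40, a receptor of antigen-presenting and epithelial cells (ENSG00000101017.15; chromosome 20, 46118271 to 46129863), and TNFRSF14, the receptor HVEM (ENSG00000157873.18; chromosome 1, 2555639 to 2565382), passed the test in SKBR3 less firmly. CD40 had 252, 247 and 241 counts untreated and 278, 298 and 296 with TWEAK, or 9.74 ± 0.610 and 11.9 ± 0.564 CPM, a log2 fold change of 0.28 (standard error 0.0898, adjusted p = 0.0991 from edgeR). TNFRSF14 had 10, 4 and 6 counts untreated and 16, 23 and 10 with TWEAK, a log2 fold change of 1.32 (standard error 0.406, adjusted p = 0.0833 from edgeR). CD40 was called in 4 of 13 alternatives and TNFRSF14 in 5 of the 12 in which it could be tested. CD40 was not called without untreated replicates 1, 2 and 3 in turn (adjusted p = 0.372, 0.202 and 0.174) or without TWEAK replicates 1 and 3 (0.128 and 0.222). TNFRSF14 was not called without untreated replicates 1, 2 and 3 (0.119, 0.304 and 0.21) or without TWEAK replicates 1 and 2 (0.156 and 0.161). Neither was called with a replicate block (0.172 for CD40 and 0.114 for TNFRSF14) or by DESeq2 (0.256 and 0.217). LTBR, next to TNFRSF12A in level, read 95.8, 99.4 and 109.6 CPM untreated and 109.6, 117.2 and 111.1 CPM with TWEAK in SKBR3, groups that just touch (log2 fold change 0.14, 0.145 before rounding to 2 decimals, adjusted p = 0.275 from edgeR). Of 13 alternatives, LTBR was called there only with all 12 libraries in one fit (adjusted p = 0.0909 from edgeR). In MDA-MB-453 it read 80.7, 80.9 and 81.0 CPM untreated and 82.0, 84.5 and 84.9 CPM with TWEAK (log2 fold change 0.05, adjusted p = 0.654 from edgeR). RELT, a TRAF1-binding receptor, read 25.3, 25.5 and 26.7 CPM untreated and 25.7, 28.4 and 26.1 CPM with TWEAK in MDA-MB-453, overlapping groups (log2 fold change 0.05, adjusted p = 0.787 from edgeR). In SKBR3 its log2 fold change was -0.08 (adjusted p = 0.605 from edgeR).

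**Figure D3:**
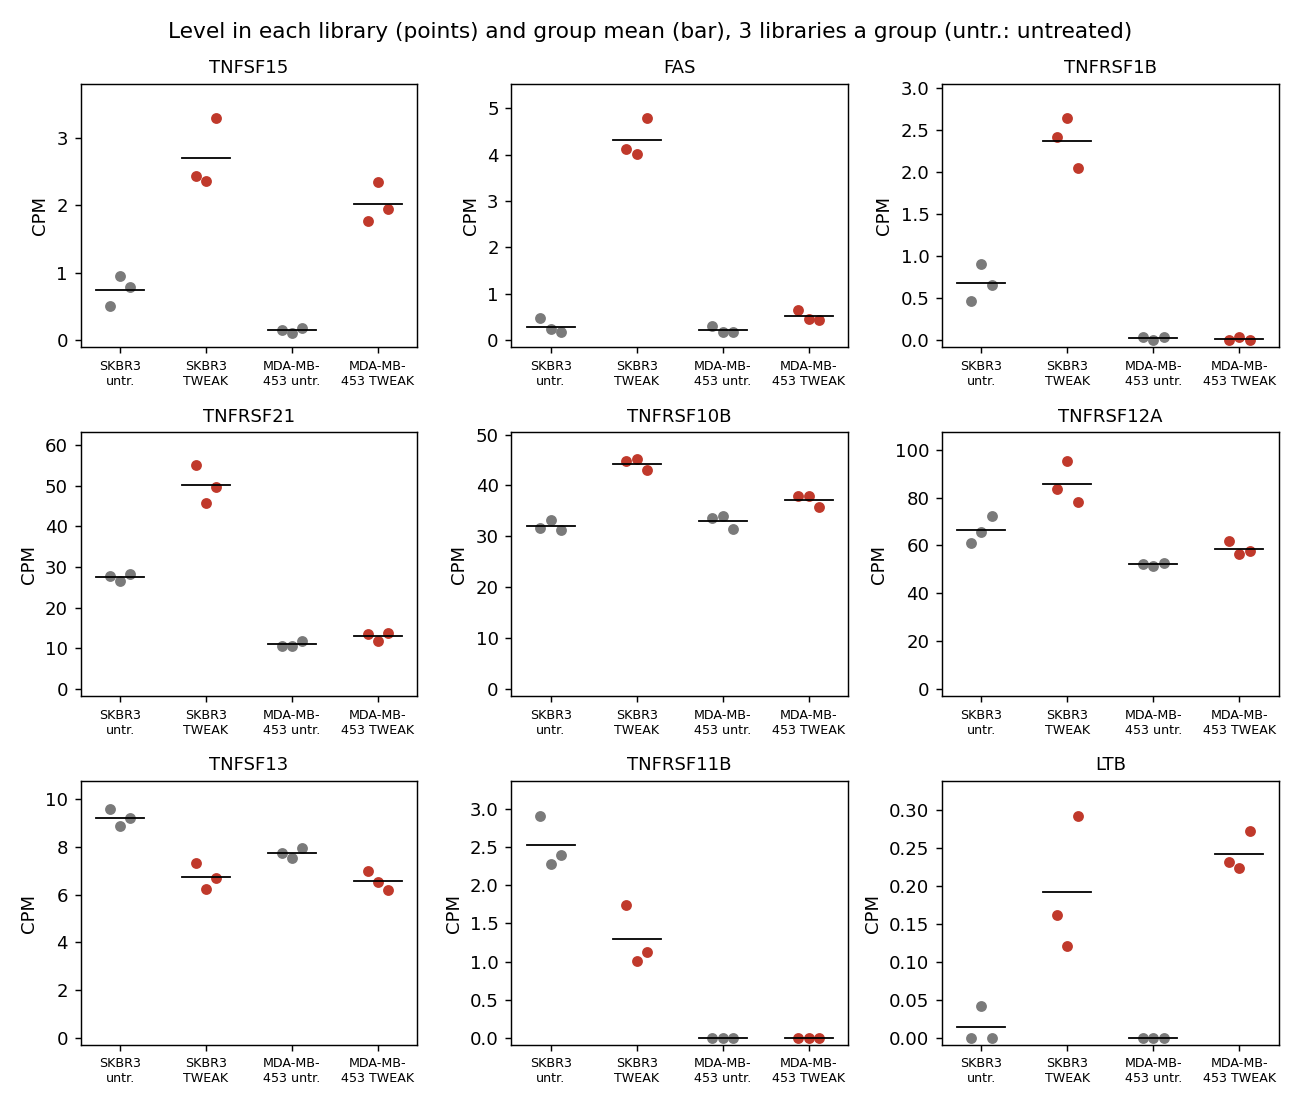
CPM in each of the 12 libraries for 9 members, with 3 libraries per group; grey points are untreated, red points are TWEAK-treated libraries and bars are group means, and each panel has its own axis from 0. FAS and TNFRSF1B rise in SKBR3 and stay below 1 CPM in every MDA-MB-453 library, TNFSF15 rises in both lines, and TNFSF13 and TNFRSF11B are lower with TWEAK in SKBR3.

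In MDA-MB-453, TWEAK raised 2 of the 17 members tested, the ligands TNFSF15 and TNFSF10, and lowered none by edgeR's test. Of all tested genes, 1.29% were called higher, 0.208% lower and 1.49% either way. None of the 12 receptors tested was called. At an unadjusted p under 0.05, 6 members were higher and 1, TNFSF13, was lower, and DESeq2 also called no member lower. The groups did not overlap for 7 of the 17, against 15.1% of all tested genes, and the median log2 fold change was 0.13, against 0.00 for all. For 2 of the 17, FAS and TNFSF15, not every untreated library reached the level of the filter. The result for receptors depended on the fit. Without TWEAK replicate 2, 6 members were higher, with FAS, TNFRSF10B, TNFRSF21 and TNFRSF12A added, and 0 were lower. The number of genes higher in the whole table went from 192 to 1003, and of genes lower from 31 to 1098. The same 4 receptors were added with all libraries kept and the replicate number as a block (adjusted p = 0.0915, 0.0326, 0.0518 and 0.02 from edgeR). With that block, 490 genes of the whole table were higher and 404 lower, against 192 and 31 in the main fit. With all libraries and no filter on low counts, TNFRSF21 and TNFRSF12A were added (adjusted p = 0.0776 and 0.0568 from edgeR), together with LTB. Without that filter, 302 genes of the whole table were higher and 178 lower.

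To compare the responses directly, the difference between the lines in the effect of TWEAK was tested over all 12 libraries. Of 24 members tested 4 differed, 3 with the higher response in SKBR3 and 1 in MDA-MB-453, where 2.36% and 1.01% of all genes were called in these directions and 3.37% in either. The responses of FAS, TNFRSF21 and TNFRSF10B were higher in SKBR3, by 2.64 (standard error 0.541, adjusted p = 0.01), 0.61 (standard error 0.117, adjusted p = 0.00625) and 0.30 (0.295 before rounding to 2 decimals, standard error 0.0783, adjusted p = 0.0604) on the log2 scale. TNFSF15 had the larger fold rise in MDA-MB-453, by -1.87 as SKBR3 minus MDA-MB-453 (standard error 0.462, adjusted p = 0.0399). All values are from edgeR. The mean level of TNFSF15 with TWEAK was 2.70 CPM in SKBR3 and 2.02 CPM in MDA-MB-453. FAS, in both lines, and TNFSF15, in MDA-MB-453, did not reach the level of the filter in every untreated library, and with at least 10 counts required in every library neither was tested. TNFRSF21 kept its call in all 18 alternatives, with an adjusted p between 7.76e-05 and 0.0333. FAS lost its call without MDA-MB-453 untreated replicate 1 (adjusted p = 0.1, just over the threshold, lowest over 17 alternatives 0.000558), and TNFSF15 without SKBR3 untreated replicate 2 (0.144), MDA-MB-453 untreated replicate 1 (0.12) or MDA-MB-453 untreated replicate 2 (0.165, lowest over 17 alternatives 0.00598). TNFRSF10B lost it in 8 of 18 alternatives, among them 6 that leave out a library (adjusted p = 0.118 to 0.203, within 0.0285 to 0.273 over all 18). TNFRSF25 was not called (difference 0.84, adjusted p = 0.143) but was with DESeq2 (0.0993), with the correction for GC content and length (0.0675) and when TWEAK replicate 1 of MDA-MB-453 was left out (0.0993). For CD40, TNFRSF11B and TNFSF9, which are among the 24, no response exists in MDA-MB-453, where all counts are 0, so that they could not be called. For TNFRSF1B the difference of 2.70 had a standard error of 1.60 (adjusted p = 0.607).

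One ligand too low to be tested was noticed after its values were seen. LTB encodes lymphotoxin beta, a ligand of LTBR (ENSG00000227507.3; chromosome 6, 31580525 to 31582522, minus strand), next to TNF and LTA. In SKBR3 it had 0, 1 and 0 counts untreated and 4, 3 and 7 with TWEAK, a ratio of 14.5 with an exact 95% interval from 2.21 to 612.9 that covers counting error only. In MDA-MB-453 there were no counts in the 3 untreated libraries and 6, 6 and 10 with TWEAK, at least 2.20-fold higher against 3 counts per library. Counts with TWEAK exceeded the untreated ones in all libraries of both lines, at levels of at most 0.292 CPM. Without the filter on low counts, edgeR gave LTB an adjusted p of 0.0405 in SKBR3 and 0.000573 in MDA-MB-453. LTA had at most 1 count in any library.

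Stretches of 250 bases upstream of the RefSeq starts of 4 genes that moved are shown, 5′ to 3′ on the strand of the gene, because NF-κB and AP-1, which receptors of this family activate, are the factors whose motifs were searched there. The genes were chosen after their values were seen. Capitals mark matches to the AP-1 motif TGANTCA or to the κB consensus, searched on both strands. TNFSF15 is shown at chr9:114792531-114792780 (minus strand), within an intron of its canonical transcript and 13509 bases from that transcript's start, TNFRSF1B at chr1:12166741-12166990 (plus), TNFRSF21 at chr6:47309906-47310155 (minus) and LTB at chr6:31582425-31582674 (minus), all on GRCh38.p14 as given by RefSeq. In the annotation of the counted genes, 27 bases of the LTB stretch lie in an exon of LTB and 48 bases of the TNFRSF1B stretch in MIR7846.
TNFSF15: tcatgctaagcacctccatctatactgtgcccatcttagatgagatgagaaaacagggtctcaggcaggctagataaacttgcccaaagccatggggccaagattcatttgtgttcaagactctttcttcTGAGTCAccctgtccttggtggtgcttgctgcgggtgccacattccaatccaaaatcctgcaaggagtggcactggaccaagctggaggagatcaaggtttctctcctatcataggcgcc
TNFRSF1B: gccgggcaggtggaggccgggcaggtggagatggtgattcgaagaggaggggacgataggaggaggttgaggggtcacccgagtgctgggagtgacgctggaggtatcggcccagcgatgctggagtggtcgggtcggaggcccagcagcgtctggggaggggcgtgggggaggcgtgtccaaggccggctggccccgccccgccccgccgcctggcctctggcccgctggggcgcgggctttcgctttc
TNFRSF21: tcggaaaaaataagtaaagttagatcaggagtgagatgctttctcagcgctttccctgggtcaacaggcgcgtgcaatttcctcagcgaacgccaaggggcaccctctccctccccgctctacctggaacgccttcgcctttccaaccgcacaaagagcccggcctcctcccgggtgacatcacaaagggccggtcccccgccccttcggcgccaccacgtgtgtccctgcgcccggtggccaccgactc
LTB: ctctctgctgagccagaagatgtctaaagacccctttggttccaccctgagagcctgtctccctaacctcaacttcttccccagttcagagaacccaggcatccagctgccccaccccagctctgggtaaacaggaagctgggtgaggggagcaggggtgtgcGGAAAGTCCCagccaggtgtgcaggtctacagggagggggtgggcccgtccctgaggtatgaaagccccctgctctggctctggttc
The window of TNFSF15 holds TGAGTCA at -120 from the start, and that of LTB holds GGAAAGTCCC at -87, while those of TNFRSF1B and TNFRSF21 have no match in these letters. RefSeq windows of 300 bases (250 before the start and 50 after) were at hand for 30 of the 48 members. The κB consensus was found in 10 of the 30 members (33.3%) and in 13.3% of 27305 genes, and TGANTCA in 7 members (23.3%) and in 9.37% of genes. Among the 8 members with a window that were called higher in a line, 3 (FAS, TNFRSF14 and TNFRSF25) had a κB match and 2 (FAS and TNFSF15) an AP-1 match. Among the 9 that were tested and not called higher, 2 had a κB match and 0 an AP-1 match. A match is a description of letters and was not tested for binding.

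Before treatment, most of the members that could be tested were higher in SKBR3 than in MDA-MB-453. Of 21 members tested 16 were higher in SKBR3 and 3 in MDA-MB-453 by edgeR. Of all genes tested, 44.8% were higher in the former line and 42.4% in the latter, 87.2% in all, so that calling 19 of 21 members is close to what all genes show. The groups did not overlap for 19 members, against 85.3% of all genes. Receptors that were present in SKBR3 and had no counts in untreated MDA-MB-453 were CD40, at least 88.3-fold higher against 3 counts per library, and TNFRSF11B, at least 22.9-fold, and the ligand TNFSF9 was at least 13.6-fold higher in the same way. In SKBR3, TNFRSF25 was higher by 3.64 on the log2 scale (12.4 ± 0.260 against 0.992 ± 0.199 CPM), TNFRSF11A, the receptor RANK, by 2.81 and TNFRSF21 by 1.33. The shared receptors with high levels differed little, TNFRSF12A by 0.35, LTBR by 0.33 and TNFRSF1A by 0.14 (adjusted p = 1.81e-06, 5.09e-07 and 0.00684 from edgeR). TNFRSF10B did not differ detectably, with a log2 difference of -0.04 (standard error 0.0549, adjusted p = 0.518 from edgeR). With the correction for GC content and length, TNFRSF10B was called lower in SKBR3 (adjusted p = 0.0634 from edgeR, the lowest over 13 alternatives).

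The members higher in untreated MDA-MB-453 were TNFSF10, RELT and TNFRSF19. TNFSF10 stood at 24.3 ± 1.70 CPM against 0.359 ± 0.0934 CPM in SKBR3, a log2 difference of -6.07 as SKBR3 minus MDA-MB-453 (standard error 0.147, adjusted p = 4.63e-23 from edgeR). RELT (25.8 ± 0.725 against 16.1 ± 0.389 CPM) differed by -0.68. TNFRSF19, the receptor TROY (ENSG00000127863.16; chromosome 13, 23570370 to 23676104), had 46, 42 and 45 counts in MDA-MB-453 and none in untreated SKBR3, at least 13.8-fold higher against 3 counts per library.

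Ligands and their receptors seldom stood together in one line. Of 34 pairs of ligand and receptor written from textbook knowledge, 0 had both sides at a mean of 1 CPM or more in untreated SKBR3, where 14 had the receptor alone and 5 the ligand alone. With TWEAK there was 1 such pair in SKBR3, TNFSF15 with TNFRSF25 (2.70 and 16.1 CPM). In untreated SKBR3 these stood at 0.746 and 12.4 CPM, so that a cut of 0.5 CPM would take in this pair there too. In MDA-MB-453 there were 2 in both conditions, TNFSF10 with TNFRSF10A (24.3 and 13.3 CPM untreated) and with TNFRSF10B (24.3 and 33.0 CPM). In TWEAK-treated SKBR3, a cut of 0.5 CPM would also take in TNFSF10 (0.724 CPM) with TNFRSF10A, TNFRSF10B and TNFRSF11B (20.5, 44.3 and 1.29 CPM). In MDA-MB-453 it would add TNFSF13B with TNFRSF13C in both conditions (0.515 and 1.53 CPM untreated). With TWEAK it would also add TNFSF15 with TNFRSF25 there (2.02 and 0.725 CPM), so the numbers of pairs depend on the cut. The numbers given are counts of RNA levels past a cut of 1 CPM, without a test, and the 3 pairs with TNFRSF6B enter them at its 0, which cannot be read as its level.

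The receptor-proximal signalling partners, a list of 38 TRAFs, adaptors, kinases, deubiquitinases and proteases that act at these receptors, were read from the same fits. In SKBR3, 12 of 37 tested rose and 1 fell, against 6.6% and 3.82% of all tested genes, with a median log2 fold change of 0.18 (0.185 before rounding to 2 decimals). In MDA-MB-453, 6 rose and 1 fell, against 1.29% and 0.208% of all tested genes, with a median of 0.01. BIRC3, an inhibitor of apoptosis that binds TRAFs, had the largest change of the list in both lines, with log2 fold changes of 3.42 (standard error 0.0986) and 3.57 (standard error 0.165). MAP3K14, which encodes NIK, rose by 1.56 and 1.95, and TNFAIP3, the NF-κB inhibitor A20, by 1.28 and 2.44. TRAF1 rose in SKBR3 from 9, 15 and 8 counts to 113, 114 and 83, a log2 fold change of 3.30 (standard error 0.251, adjusted p = 1.01e-05). In MDA-MB-453, TRAF1 had 27, 34 and 29 counts untreated and 27, 44 and 62 with TWEAK, and these groups overlapped (log2 fold change 0.42, adjusted p = 0.521). All of these values are from edgeR. The untreated counts of TRAF1 in SKBR3, and of TNFAIP3 in MDA-MB-453 (15, 18 and 10), did not all reach the level of the filter, so that both genes were tested through higher counts in other libraries.

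**Figure D4:**
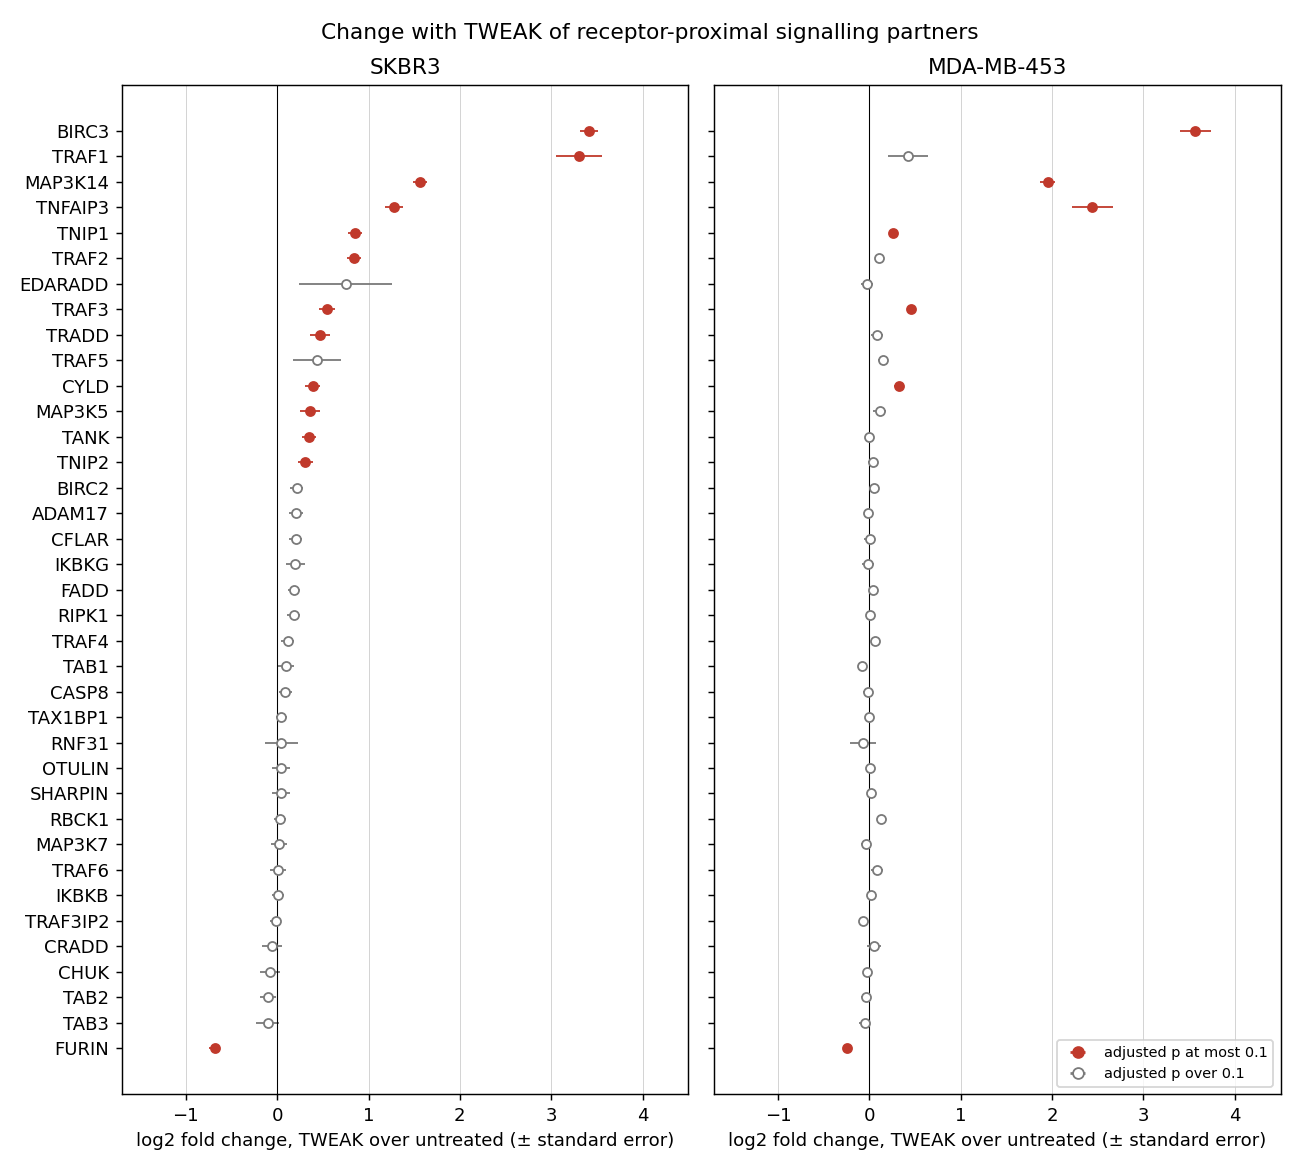
Log2 fold change of TWEAK-treated over untreated libraries, with its standard error, for the 37 signalling partners tested in SKBR3 and in MDA-MB-453, from edgeR. Filled red points passed an adjusted p of 0.1: 13 in SKBR3 and 7 in MDA-MB-453, with BIRC3 at the top in both and FURIN the only filled point below 0.

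TRAF2 rose by 0.84 in SKBR3 (standard error 0.0778, adjusted p = 4.46e-05) and had a log2 fold change of 0.10 in MDA-MB-453 (adjusted p = 0.364). TRAF3, which holds NIK in check, rose by 0.55 and 0.46, and TNIP1, a partner of A20, by 0.85 and 0.26. The deubiquitinase gene CYLD rose by 0.39 in SKBR3 and by 0.32 in MDA-MB-453 (adjusted p = 0.0133 and 0.00544 from edgeR). FURIN, a protease that cleaves proproteins, fell by 0.69 on the log2 scale in SKBR3 (0.685 before rounding to 2 decimals, from 166.0 ± 7.84 to 103.6 ± 2.29 CPM) and by 0.24 in MDA-MB-453 (from 71.8 ± 3.89 to 60.7 ± 2.92 CPM, adjusted p = 0.0286 from edgeR). The fall of FURIN in MDA-MB-453 was not called in 3 of the fits that left out a library, those that dropped untreated replicate 2 or 3 or TWEAK replicate 3. The responses of the lines differed for 6 partners, against 3.37% of all tested genes. Those of TRAF1, TRAF2 and TNIP1 were higher in SKBR3, by 2.89, 0.75 and 0.60 on the log2 scale. TNFAIP3 had the larger fold rise in MDA-MB-453, by -1.15 as SKBR3 minus MDA-MB-453. Its mean level went from 0.527 to 2.895 CPM there and from 8.385 to 20.5 CPM in SKBR3. FURIN had the larger fold decrease in SKBR3, by -0.44. The last of the 6 was TANK, a TRAF-binding adaptor named here after its values were seen, whose response was higher in SKBR3 by 0.36. The adjusted p of these 6 lay between 6.05e-05 and 0.0353 from edgeR.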

How the data were processed

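Poly(A) RNA of 12 libraries was sequenced. The authors trimmed reads with Trimmomatic, mapped them to hg38 with STAR and counted them per gene with featureCounts, and the deposited values are raw counts, in 1 table per line. Versions, annotation release, strand setting and the treatment of multi-mapping reads are not given in the sources used here. The labels name a DNA library kit and the study's methods a directional RNA kit. All columns of per-sample values were used.

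Both tables were joined by gene identifier. Of 62696 identifiers, 61918 matched GENCODE with their version, and 71 of the rest matched no gene. Groups were taken from the labels. The members and the lists were chosen with earlier results of these data known.

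Each comparison was fitted over all genes with edgeR 4.0.16 in R 4.3.3 (filterByExpr with a minimum count of 10, TMM, quasi-likelihood test, two-sided, Benjamini-Hochberg adjustment), and genes with an adjusted p of at most 0.1, the study's threshold, were called. The fits of a line used its 6 libraries, the difference between responses used all 12, and the untreated lines were compared with their 6. Standard errors are those of the fitted log2 fold change. Levels are CPM, divided by the length of the Ensembl canonical transcript where genes are compared. Error terms after ± are SDs over 3 replicates. The scripts were first run on simulated counts with known changes. Alternatives were DESeq2 1.42.0, its size factors, other filters, other sets of libraries, a replicate block, an adjusted p of 0.05, each library left out in turn and, chosen after seeing the data, a correction for GC content and length and the length of all exons.

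Values in every library were given for TNFRSF12A and TNFSF12, and for the 5 receptors with the highest level per length in each line. For members called in a comparison of treatment they were given in the line of the call. Members with a mean of 1 CPM could be named with their test, and up to 8 called partners per line. The replicates are described by the study as biological. LTB, and the genes whose upstream sequence is shown, were named after their values were seen.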

Additional observations from a re-analysis of the deposited data

Results flagged for a closer look

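Between the lines, 4 of 24 members tested differed in their response to TWEAK by a test of the difference itself, edgeR's interaction term over 12 libraries, against 3.37% of all tested genes. The 24 include CD40, TNFRSF11B and TNFSF9, which had no counts in MDA-MB-453 and could not be called. The difference, as the SKBR3 minus the MDA-MB-453 log2 fold change, was 2.642 for FAS and 0.609 for TNFRSF21, whose product is death receptor 6. It was 0.295 for TNFRSF10B, which encodes DR5, and -1.87 for TNFSF15, which encodes TL1A. Of the alternatives in which each could be tested, TNFRSF21 kept its call in all 18, whereas FAS lost it in 1 of 17, TNFSF15 in 3 of 17 and TNFRSF10B in 8 of 18. TNFSF15 rose in both lines, from fewer counts in untreated MDA-MB-453. Whether the depth of these few counts has a part in the TNFSF15 difference was not tested.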

How the results depend on the processing

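No called TWEAK effect on a member, and no called difference between the lines in that effect, changed its sign under the alternatives in which it could be tested. In SKBR3, 6 members were higher at an adjusted p of at most 0.05, and leaving out 1 library gave 5 to 10 higher and 1 to 3 lower. In MDA-MB-453, the 2 higher members became 1 with DESeq2, with at least 10 counts in every library, with all 12 libraries in one fit and at an adjusted p of 0.05, 5 without a filter on low counts, and 1 to 6 when 1 library was left out. Over all genes, leaving out 1 library gave 686 to 1589 higher and 240 to 1191 lower in SKBR3. In MDA-MB-453 it gave 120 to 1003 higher and 10 to 1098 lower. The 1 partner lower there became 0 to 1 when 1 library was left out. Members whose response differed between the lines numbered 2 with at least 10 counts in every library and 1 to 5 when 1 library was left out. With at least 10 counts in every library, 10 members were higher in untreated SKBR3 and 1 in untreated MDA-MB-453, since that filter tests fewer genes. Members higher in untreated SKBR3 numbered 21 with DESeq2, 21 with no filter on low counts and 18 with all 12 libraries in one fit. In these fits 8229, 9215 and 7491 genes of the whole table were higher, against 7311 in the main fit. Members higher in untreated MDA-MB-453 numbered 4 with the correction for GC content and length. For the other changes the cause was not tested. The correction for GC content and length was chosen after seeing the data. Replicate numbers are shared between groups, and the study ran its cell line experiments independently on different days, without tying the numbers to days. Same-numbered libraries did not deviate together throughout, so they were not taken as pairs. SKBR3 gave correlations of 0.169, -0.144 and -0.233 for the same number, and its highest, 0.346, was between untreated replicate 3 and TWEAK replicate 2. MDA-MB-453 gave 0.129, 0.133 and 0.0239, where each library correlated best with its own number. With a replicate block, 7 members were higher and 2 lower in SKBR3, 6 higher and 0 lower in MDA-MB-453, 3 responses differed between the lines, and 16 and 3 members differed between untreated lines. Over all genes, the block gave 824 higher and 387 lower in SKBR3 (1034 and 599 without it). In MDA-MB-453 it gave 490 and 404 (192 and 31 without it). It gave 321 and 101 for the difference between responses (406 and 173) and 7257 and 6866 between untreated lines (7311 and 6915). Levels under 0.119 CPM in untreated SKBR3 and 0.110 CPM in untreated MDA-MB-453, 3 counts per library, cannot be told from 0 at this depth.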
